A study of Mus musculus with 10 samples.

Results

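The genes examined were 39 enzymes and regulators of glycolysis, pyruvate use and the pentose phosphate pathway. They were followed through the induced reprogramming of mouse embryonic fibroblasts (MEF) and set beside embryonic stem cells (ESC). The members were taken by symbol from a fixed list, and all 39 were found among the 45706 genes of the deposited tables. The list rests on pathway membership and not on a threshold, and it was drawn up with earlier results of these data known.

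RNA was sequenced at 5 stages with 2 libraries each. MEF came from mice of a C57BL/6 x 129 background with a doxycycline-inducible cassette for Oct4, Klf4, Sox2 and Myc in the Col1a1 locus and the transactivator M2rtTA in the ROSA26 locus, and were kept in MEF medium without doxycycline. Cells of the same genotype and background were taken on day 3, day 6 and day 9 in ESC medium with doxycycline at 1 µg/ml and ascorbic acid at 50 µg/ml. Serum at 15% and the cytokine LIF at 1000 U/ml were recorded for these cells and for the ESC, and neither was recorded for MEF. Day 3 cells, like the MEF and the ESC, were unsorted, and those of day 6 and day 9 were sorted for a marker given as SSEA+. The ESC were the line V6.5, also recorded as C57BL/6 x 129, grown in ESC medium on irradiated feeder cells, without the cassette genotype or doxycycline. All ESC libraries are of this 1 line. The labels do not say whether replicate libraries came from separate cultures or animals, so p-values measure the spread between these libraries.

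Glycolysis splits glucose into pyruvate in the cytoplasm and yields ATP without oxygen. Pyruvate is then reduced to lactate by lactate dehydrogenase, oxidised to acetyl-CoA in mitochondria by the pyruvate dehydrogenase complex, or carboxylated to oxaloacetate. The pentose phosphate pathway draws on glucose 6-phosphate to make NADPH and ribose. Many steps are served by isozymes encoded by separate genes, and pluripotent stem cells are known for high glycolytic flux.

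Libraries held 29585876 to 38275024 estimated reads. Marker genes went with the labels: 10 fibroblast genes summed to 9420 and 9904 TPM in MEF, 482 to 504 at day 3, and 11.5 to 21.2 at day 6 and day 9. The same genes summed to 842 and 889 TPM in the ESC libraries, which were grown on feeder cells. The 5 pluripotency genes summed to at most 1.24 TPM in MEF and day 3, 71.2 to 74.1 at day 9, and 2433 and 2457 in ESC. The sex-linked genes set both MEF and ESC apart from the induced cells. Xist was at 0.0455 and 0.175 TPM in MEF, at 148 to 181 in the 6 induced libraries, and at 0.908 and 0.966 in ESC. The Y-linked Ddx3y was at 10.8 and 11.4 TPM in MEF, at or below 0.0242 in the induced libraries, and at 3.09 and 3.70 in ESC. Differences of the induced cells from MEF or from ESC therefore cannot be told apart from a difference between the cell sources. Induction, the change of medium with its recorded LIF and serum, and ascorbic acid came together at day 3. Sorting came with day 6, so these cannot be told apart either. In bulk RNA, fewer cells of a type and less RNA per cell cannot be told apart.

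Levels are in TPM (transcript abundance scaled to a fixed total per library), which account for transcript length and so allow genes to be compared. Fold changes come from the quasi-likelihood test of edgeR on read counts scaled by TMM, a scaling to the bulk of the genes, so that a TPM ratio and a fold change need not match. A gene was called when its Benjamini-Hochberg adjusted p was under 0.05 over all 20165 genes tested and its log2 fold change was at least 1 in size. All 39 members passed the filter on low counts. The 6 comparisons share groups, so their counts are given side by side only.

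The summed TPM of the glycolytic genes was high in MEF, low at all 3 induced stages and higher again in ESC. Some genes did not follow the sum. For ESC with day 9 the log2 fold change was -0.03 for Hk1, -1.07 for Aldoc and -1.2 for Eno2. The 39 members together took 1.33% and 1.31% of all TPM in the MEF libraries, 0.462% and 0.456% at day 3, 0.55% in both day 6 libraries, 0.556% and 0.554% at day 9, and 0.982% and 1.0% in ESC. Each induced library was below each MEF and ESC library. Gapdh alone made up 0.545% and 0.548% of TPM in MEF, a large part of the sum, and 0.234% to 0.289% in the induced libraries.

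From MEF to day 3, 2 members rose and 16 fell, where 14.6% of all tested genes were called higher and 14.5% lower. The median log2 fold change was -0.74 over the members and 0.08 over all tested genes. From day 3 to day 6, 4 members rose and 2 fell, against 9.26% and 10.2% of all genes, with medians of 0.13 and 0.03. Between day 9 and day 6 only Fbp2 rose and 0 members fell, against 5.18% and 2.68% of all genes, and the medians were 0.07 and 0.00.

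Across the whole induced course, day 9 with MEF gave 4 members higher and 17 lower, where 24.1% of all genes were called higher and 19.8% lower. Between ESC and day 9, 7 members were higher and 4 lower, against a background of 18.6% and 14.3%. Between ESC and MEF, 6 were higher and 9 lower, against 25.5% and 20.6%. The median log2 change over the members was -0.85 for day 9 with MEF, 0.5 for ESC with day 9, and -0.41 for ESC with MEF. By adjusted p alone, with no fold minimum, most members differed in most comparisons. At day 3, 9 were higher and 26 lower, against 35.4% and 29.5% of all genes. For day 6 with day 3 they were 21 and 9 (29.2% and 27.3%), and for day 9 with day 6 they were 13 and 12 (15.7% and 18.9%). ESC with day 9 gave 26 and 11 (36.1% and 33.5%). Day 9 with MEF gave 10 and 25 (41.7% and 33.1%). The counts between ESC and MEF were 14 and 24 (40.4% and 36.2%).

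**Figure D1:**
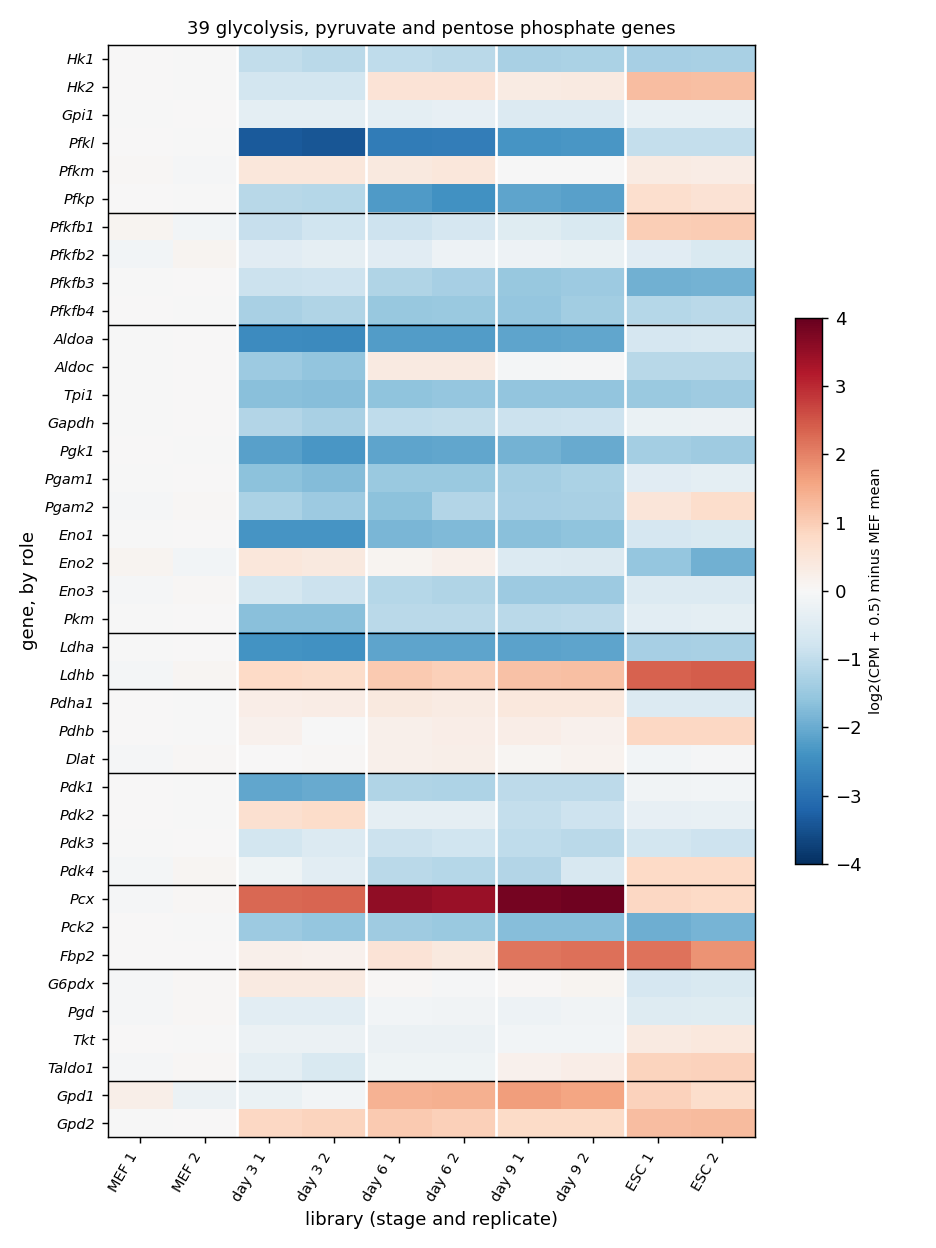
Heat map of the 39 genes (rows, ordered by role, black lines between roles) in the 10 libraries (columns), coloured by the difference in log2(CPM + 0.5) from the MEF mean on a scale from -4 to 4. The aldolase to pyruvate kinase rows are mostly blue from day 3 to day 9 and paler in ESC, while Pcx is deep red at day 6 and day 9.

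The 18 members whose 6 induced libraries all lay below the 4 MEF and ESC libraries in scaled CPM were Pfkl, Pfkp, Pfkfb1, Pfkfb4, Gpi1, Aldoa, Tpi1, Gapdh, Pgk1, Pgam1, Pgam2, Eno1, Eno3, Pkm, Ldha, Pdk1, Pdk4 and Tkt. Over all tested genes, 10.2% had that arrangement. The opposite arrangement, all induced libraries above the others, held for Pcx and Pdha1, against 13.8% of all genes. This grouping was made after the values were seen and carries no test. It divides the libraries in the same way as Xist and Ddx3y do, so it cannot be told apart from the difference between the cell sources.

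Of the 6 genes of the hexose steps, 3 fell at day 3 and none rose, against 14.5% and 14.6% of all genes. Hexokinases trap glucose in the cell as glucose 6-phosphate, and Hk1 and Hk2 encode forms that bind mitochondria. Hk1 stood at 31.8 and 24 TPM in MEF, 15.4 and 11.8 at day 3, 12.8 and 13.4 at day 6, 11.5 and 10.1 at day 9 and 11 and 12.4 in ESC. It was highest in the 2 MEF libraries and overlapped among the later stages. The log2 fold change of Hk1 at day 3 was -1.03 ± 0.04 (SE, adjusted p = 1.4e-11), close to the minimum. Without day 3 replicate 2 it was -0.98 and no longer called, and without TMM it was -0.82. For ESC with MEF it was -1.32 ± 0.04 (SE), and -0.98 without TMM.

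Hk2 was not called at day 3 and stood above its MEF level from day 6 onward. Its levels were 20.8 and 19.3 TPM in MEF, 15 and 15 at day 3, 27.9 and 29.2 at day 6, 26.3 and 26.4 at day 9 and 48.3 and 48.4 in ESC. It was lowest at day 3 and highest in ESC, and no 2 stages overlapped. The log2 change was -0.74 ± 0.03 (SE) at day 3, which missed the fold minimum, and 1.29 ± 0.03 (SE, adjusted p = 4.6e-13) from day 3 to day 6. ESC exceeded MEF by 1.23 ± 0.03 (SE, adjusted p = 1.0e-13) on the log2 scale. In TPM the day 6 change was smaller, 0.93 by limma on log2(TPM + 0.1) and not called. Only 33.5% to 47.7% of the TPM of Hk2 lay on coding entries over 1000 nt, against 88.5% to 93.2% of its reads.

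The share of Hk2 in the summed hexokinase TPM was 39.5 and 44.6 % in MEF against 49.3 and 56 at day 3, 68.6 and 68.5 at day 6, 69.5 and 72.3 at day 9 and 81.4 and 79.6 in ESC. It was higher in every library after day 3 than in any MEF or day 3 library. Counted in reads in place of TPM, the mean share of Hk2 was 38.5% in MEF and 43.5% at day 3, against 65.8% at day 6, 66.1% at day 9 and 78.6% in ESC. With 2 libraries a group the exact permutation test cannot go below 0.333, so shares carry no test.

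Gpi1, which turns glucose 6-phosphate into fructose 6-phosphate, was not called in any comparison. Its TPM ran from 121 at day 9 to 195 in MEF, and its log2 fold changes from -0.55 (day 9 with MEF) to 0.25 (ESC with day 9).

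Phosphofructokinase commits sugar to glycolysis, and its subunits of the liver (Pfkl), muscle (Pfkm) and platelet (Pfkp) types assemble into mixed tetramers. Pfkl (chromosome 10, 77986947 to 78010083, GRCm38) had the largest fall of any member. It stood at 113 and 109.5 TPM in MEF, 11.2 and 10.8 at day 3, 16.7 and 16.5 at day 6, 21 and 20.6 at day 9 and 64.2 and 62.7 in ESC. All induced libraries were far below both MEF and ESC, with a slow rise from day 3 to day 9. Its log2 fold change was -3.41 ± 0.04 (SE, adjusted p = 2.6e-17) at day 3 and 1.4 ± 0.03 (SE, adjusted p = 1.1e-13) for ESC with day 9, and -0.95 ± 0.03 (SE) for ESC with MEF, under the minimum.

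Pfkp stood at 44.7 and 41.4 TPM in MEF, 18.6 and 19.7 at day 3, 7.83 and 8.08 at day 6, 8.48 and 9.08 at day 9 and 69.1 and 64.6 in ESC. It fell in steps, at day 3 by 1.13 ± 0.05 (SE, adjusted p = 2.1e-11) and from day 3 to day 6 by 1.23 ± 0.05 (SE, adjusted p = 8.5e-11). Without TMM the first of these was -0.93, under the minimum. ESC then exceeded day 9 by 2.79 ± 0.05 (SE, adjusted p = 2.7e-15), the largest positive difference of a member in that comparison, followed by Pgam2.

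Pfkm was called in none of the 6 comparisons. Its levels were 8.37 and 7.62 TPM in MEF against 10.9 and 11.4 at day 3, 10.7 and 11 at day 6, 7.52 and 7.40 at day 9 and 10.7 and 10.2 in ESC, between 7.40 and 11.4 in all libraries.

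The make-up of the phosphofructokinase transcripts differed between stages. Pfkl made up 68.1 and 69.1 % in MEF against 27.5 and 25.7 at day 3, 47.4 and 46.4 at day 6, 56.7 and 55.6 at day 9 and 44.6 and 45.6 in ESC. The share of Pfkm was 26.8 and 27.2 % at day 3, 30.4 and 30.9 at day 6 and 20.3 and 19.9 at day 9, with 5.03 and 4.80 in MEF and 7.42 and 7.43 in ESC. Pfkp made up 26.9 and 26.1 % in MEF against 45.7 and 47.1 at day 3, 22.2 and 22.7 at day 6, 22.9 and 24.5 at day 9 and 48 and 47 in ESC. By TPM, MEF transcripts were mostly of the liver type, and the platelet type had the largest share at day 3 and in ESC. By reads, Pfkl led in MEF with a mean of 74.9% and in ESC with 51.2%, where Pfkp had 38.2%. At day 3 the read means were 36.5% for Pfkm, 34.7% for Pfkp and 28.8% for Pfkl. The leading subunit at day 3 and in ESC thus depended on the scale, and 33.5% to 42.0% of the TPM of Pfkp lay on coding entries over 1000 nt.

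The 4 Pfkfb genes encode the bifunctional enzymes that make and break fructose 2,6-bisphosphate, the strongest activator of phosphofructokinase. They were low throughout, with summed TPM of 18.6 and 18.7 in MEF, 7.96 to 10.4 in the induced libraries, and 11.1 and 11.8 in ESC. Pfkfb3, the form with the highest kinase activity, stood at 10.1 and 10.4 TPM in MEF, 5.05 and 5.82 at day 3, 4.38 and 4.68 at day 6, 3.58 and 3.35 at day 9 and 3.07 and 3.14 in ESC. It was lower at each later stage. The log2 change was -0.85 ± 0.05 (SE) at day 3, under the minimum, -1.49 ± 0.05 (SE, adjusted p = 2.3e-12) for day 9 with MEF and -1.93 ± 0.05 (SE, adjusted p = 2.1e-13) for ESC with MEF.

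Pfkfb4, a form first described in testis, stood at 4.41 and 4.27 TPM in MEF, 1.96 and 1.58 at day 3, 0.962 and 1.55 at day 6, 0.997 and 1.60 at day 9 and 1.44 and 1.86 in ESC. The MEF libraries were above all others, which overlapped. It fell by 1.31 ± 0.1 (SE, adjusted p = 3.7e-08) at day 3 and was -1.18 ± 0.1 (SE) for ESC with MEF, which became -0.84 without TMM. Between 0% and 68.1% of its reads in a library lay on coding entries over 1000 nt.

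Pfkfb1, the liver and muscle form, was at 2.16 and 1.94 TPM in MEF, 1.28 and 1.39 at day 3, 1.30 and 1.70 at day 6, 1.73 and 1.43 at day 9 and 4.98 and 5.33 in ESC. Only ESC stood out, above day 9 by 1.7 ± 0.15 (SE, adjusted p = 1.3e-07) and above MEF by 1.08 ± 0.14 (SE, adjusted p = 8.2e-06). Without MEF replicate 2 the latter was 0.97 and lost its call. At day 3 its log2 change was -0.98, and it gained a call without MEF replicate 2 (-1.09) or without day 3 replicate 2 (-1.05). Pfkfb2, the heart form, was not called anywhere and stood at 2.07 and 1.99 TPM in MEF, 1.42 and 1.62 at day 3, 1.68 and 1.97 at day 6, 1.98 and 1.58 at day 9 and 1.64 and 1.43 in ESC. Both MEF libraries were above the others, and the later stages overlapped.

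Pfkfb3 held 53.9 and 55.9 % in MEF against 52 and 55.9 at day 3, 52.6 and 47.2 at day 6, 43.2 and 42.2 at day 9 and 27.6 and 26.7 in ESC. Pfkfb1 took 11.5 and 10.4 % in MEF against 13.2 and 13.3 at day 3, 15.6 and 17.2 at day 6, 20.9 and 18 at day 9 and 44.8 and 45.3 in ESC, so that Pfkfb1 was ahead of Pfkfb3 only in the ESC libraries by TPM. By reads, Pfkfb3 led at every stage, with a mean of 73.7% in MEF and 48.4% in ESC.

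The 11 genes from aldolase to pyruvate kinase carry most of the RNA of the pathway. Their summed TPM was 11620 and 11400 in MEF, 3750 and 3841 at day 3, 4619 to 4725 at day 6 and day 9, and 8487 and 8673 in ESC. At day 3, 9 of the 11 fell and none rose, against 14.5% and 14.6% of all genes. For day 9 with MEF 8 fell and 0 were higher, against 19.8% and 24.1%. For ESC with MEF 4 fell and 0 were higher, against 20.6% and 25.5%.

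Aldoa, the aldolase of muscle and most proliferating cells, was at 1023 and 1012 TPM in MEF, 168 and 176 at day 3, 218 and 218 at day 6, 216 and 219 at day 9 and 666 and 686 in ESC. All 6 induced libraries lay below MEF and ESC. It fell by 2.55 ± 0.03 (SE, adjusted p = 1.1e-16) at day 3 and was higher in ESC than at day 9 by 1.45 ± 0.03 (SE, adjusted p = 2.4e-14).

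Aldoc, the aldolase form known from brain, did not follow Aldoa. It stood at 39.6 and 38.8 TPM in MEF, 12.2 and 13.2 at day 3, 45.9 and 47.1 at day 6, 33 and 37.1 at day 9 and 17.9 and 17.6 in ESC. It was low at day 3, back at or above the MEF level at day 6, and low again in ESC. Its log2 changes were -1.55 ± 0.06 (SE, adjusted p = 7.9e-12) at day 3, 1.9 ± 0.06 (SE, adjusted p = 1.3e-12) from day 3 to day 6 and -1.07 ± 0.05 (SE, adjusted p = 3.1e-10) for ESC with day 9. The last of these was not called by limma on log2(TPM + 1), at -0.94, or on log2(TPM + 0.1), at -0.97. For ESC with MEF it was -1.12 ± 0.05 (SE), and -0.78 without TMM. The share of Aldoc in aldolase TPM was 3.72 and 3.69 % in MEF against 6.78 and 6.97 at day 3, 17.4 and 17.8 at day 6, 13.3 and 14.5 at day 9 and 2.62 and 2.50 in ESC. By reads the day 6 mean was 9.63%, also the highest of the 5 stages. From 5.9% to 11.9% of its TPM lay on coding entries over 1000 nt. The 5 neuron markers had a median log2 change of 1.36 from day 3 to day 6. Against 9.26% and 10.2% of all genes, 3 rose and 0 fell. They were Tubb3, Syt1 and Rbfox3, all under 1 TPM at both days. Tubb3 was at 0.122 and 0.148 TPM at day 3 and 0.676 and 0.577 at day 6. That was far below its 27.1 and 26.9 TPM in MEF and 27.4 and 27.2 in ESC. Syt1 was at 0.0931 and 0.0971 TPM at day 3 and then 0.246 and 0.239. Rbfox3 was at 0 in MEF and day 3 and at 0.0289 and 0.0431 TPM at day 6. The 5 genes summed to 56.8 and 61.7 TPM in MEF, 94.9 to 127 in the induced libraries and 228 and 243 in ESC. Most of it was Stmn2 in the induced and ESC libraries. Stmn2 was at 126 and 114 TPM at day 3 and lower at day 6, at 106 and 96.1. The part of the neuron markers in the Aldoc values was not tested.

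Triose phosphate isomerase, encoded by Tpi1, interconverts the products of aldolase. Its levels were 1178 and 1091 TPM in MEF, 338 and 331 at day 3, 377 and 370.1 at day 6, 337 and 325 at day 9 and 395 and 439 in ESC. MEF was above the other 8 libraries, and ESC was only slightly above the induced cells. Tpi1 fell by 1.69 ± 0.03 (SE, adjusted p = 1.1e-14) at day 3 and was -1.45 ± 0.03 (SE, adjusted p = 2.8e-14) for ESC with MEF.

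Gapdh, which makes the first NADH of the pathway, was the most abundant member at every stage. It stood at 5478 and 5448 TPM in MEF, 2448 and 2336 at day 3, 2733 and 2753 at day 6, 2892 and 2884 at day 9 and 4837 and 4898 in ESC. It fell at day 3 by 1.22 ± 0.04 (SE, adjusted p = 8.0e-13). Its log2 change was -0.85 ± 0.04 (SE) for day 9 with MEF, 0.6 ± 0.04 (SE) for ESC with day 9 and -0.25 ± 0.04 (SE) for ESC with MEF, none of them called. Gapdh is often used as a reference gene, and at day 3 a ratio to it would start from this fall.

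Pgk1 on the X chromosome makes the first ATP of the pathway. It was at 379.7 and 365 TPM in MEF, 83 and 77.1 at day 3, 87.9 and 87.9 at day 6, 96 and 87 at day 9 and 156 and 146 in ESC. It fell by 2.24 ± 0.05 (SE, adjusted p = 5.7e-14) at day 3 and was -1.38 ± 0.05 (SE) for ESC with MEF. Between 29.2% and 39.2% of the reads of Pgk1 and its sequence-matched copies lay on the copies. Adding them changed no call.

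Pgam1, the phosphoglycerate mutase of most tissues, had 265 and 264 TPM in MEF, 83.9 and 82 at day 3, 95.5 and 95.9 at day 6, 98.5 and 103 at day 9 and 208 and 209 in ESC. It fell by 1.7 ± 0.04 (SE, adjusted p = 3.8e-14) at day 3, and ESC with day 9 stood at 0.89 ± 0.04 (SE), under the minimum, and at 1.04, a call, by limma on log2(TPM + 1). Pgam2, the muscle form, was near the limit of detection with 9 to 126 reads a library. Its levels were 1.42 and 1.47 TPM in MEF, 0.375 and 0.286 at day 3, 0.208 and 0.424 at day 6, 0.333 and 0.334 at day 9 and 2.31 and 2.73 in ESC. It fell by 2.14 ± 0.34 (SE, adjusted p = 7.6e-05) at day 3 and was 2.76 ± 0.33 (SE, adjusted p = 4.1e-06) for ESC with day 9. The sum of the 8 skeletal muscle markers was also lowest in the induced cells, but highest in MEF and not in ESC. It was 40.2 and 40.5 TPM in MEF, 1.54 to 3.4 in the induced libraries and 20.1 and 21.1 in ESC. Most of it was Acta1 and Des, and single markers differed from the sum. Myod1 was at 0.0964 and 0.109 TPM at day 9, 0.107 and 0.103 in MEF, and 0.00897 and 0 in ESC. Ckm had its highest mean in ESC, at 0.117 TPM against 0.0265 in MEF. Myog was at 0 in all 6 induced libraries. Their part in the Pgam2 values was not tested.

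Enolase turns phosphoglycerate into phosphoenolpyruvate. Eno1, the form of most tissues, stood at 2462 and 2394 TPM in MEF, 439.6 and 454 at day 3, 675 and 670.2 at day 6, 692 and 683 at day 9 and 1592 and 1657 in ESC. The induced libraries were all below MEF and ESC, with day 3 lowest. It fell by 2.37 ± 0.03 (SE, adjusted p = 2.7e-16) at day 3. ESC with day 9 gave 1.0 ± 0.03 (SE), just short of the minimum before rounding, and it was called without day 9 replicate 2 or without ESC replicate 1 (1.03 in both). The retrogene Eno1b took most of the 42.7% to 48.0% of reads found on copies, and 10.6% to 13.4% of the TPM of Eno1 lay on coding entries over 1000 nt, so its TPM is uncertain.

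Eno2, the neuronal form, was at 11.5 and 13.7 TPM in MEF, 15.1 and 17.4 at day 3, 13.7 and 14.8 at day 6, 8.75 and 8.44 at day 9 and 4.23 and 3.74 in ESC. It was highest at day 3 and lowest in ESC. Its log2 change was -1.2 ± 0.11 (SE) for ESC with day 9 and -1.78 ± 0.1 (SE, adjusted p = 7.9e-10) for ESC with MEF, both called. The first was -0.94 and not called by limma on log2(TPM + 1). Only 1.4% to 9.5% of the TPM of Eno2 and 3.2% to 20.3% of its reads lay on coding entries over 1000 nt. Its entry with the most TPM was a retained intron, so both calls rest mostly on reads of other entries. Eno3, the muscle form, was at 36.3 and 36.7 TPM in MEF, 19.7 and 21.5 at day 3, 17.2 and 13.6 at day 6, 13.1 and 11.1 at day 9 and 22.9 and 22.2 in ESC, and fell between MEF and day 9 by 1.49 ± 0.07 (SE, adjusted p = 6.7e-11). Eno1 held at least 92.1% of enolase TPM in every library. Its lowest shares were at day 3, with 92.1% and 92.7%, where Eno2 and Eno3 each took 3.18% to 4.35%. By reads, the day 3 shares were 87.3% and 88.1% for Eno1, 8.10% and 7.81% for Eno2, and 4.61% and 4.13% for Eno3.

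Pyruvate kinase, encoded by Pkm, makes pyruvate and the second ATP. Pkm stood at 746 and 737 TPM in MEF, 233 and 241 at day 3, 355 and 357 at day 6, 339 and 338 at day 9 and 587 and 592 in ESC. It was lowest at day 3. It fell by 1.67 ± 0.03 (SE, adjusted p = 1.2e-15) at day 3 and was -1.06 ± 0.03 (SE) for day 9 with MEF, which became -0.77 without TMM.

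Pkm (chromosome 9, 59656368 to 59679375, plus strand) is spliced with 1 of a pair of mutually exclusive exons. The upstream one gives the M1 form of differentiated tissues such as muscle, and the downstream one gives the M2 form of proliferating and embryonic cells. The deposited tables hold 1 transcript with each. Both exons have 167 bases and are 61.7% identical base by base. They are shown because only reads that overlap them can tell the forms apart, with the bases that differ in capitals, 5′ to 3′ from GENCODE transcripts on GRCm38.
M1 exon, chr9:59675029-59675195: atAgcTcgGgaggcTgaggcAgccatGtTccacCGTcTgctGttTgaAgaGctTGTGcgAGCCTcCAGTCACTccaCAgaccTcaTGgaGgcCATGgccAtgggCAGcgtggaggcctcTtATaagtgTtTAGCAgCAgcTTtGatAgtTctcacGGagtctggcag
M2 exon, chr9:59675568-59675734: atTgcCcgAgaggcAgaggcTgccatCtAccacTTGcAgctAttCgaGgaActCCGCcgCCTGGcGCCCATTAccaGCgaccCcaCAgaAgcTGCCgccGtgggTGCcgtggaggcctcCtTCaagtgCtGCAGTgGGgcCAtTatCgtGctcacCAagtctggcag

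The M2 transcript led in all 10 libraries. The M1 transcript was at 84.4 and 82.4 TPM in MEF, 18.2 and 15.5 at day 3, 21.5 and 23.2 at day 6, 14.6 and 17.1 at day 9, and 34.1 and 37.6 in ESC. The M2 transcript was at 662 and 655 TPM in MEF, 214 and 226 at day 3, 334 and 333 at day 6, 324 and 321 at day 9, and 553 and 554 in ESC. The M1 share was 11.2% ± 0.0937 (SD, n = 2) in MEF, 7.13% ± 0.978 at day 3 and 6.28% ± 0.329 at day 6. It was 4.68% ± 0.518 at day 9 and 6.08% ± 0.392 in ESC. Both MEF libraries were above the other 8. The range at day 6 overlapped those at day 3 and in ESC, which did not overlap each other. The single reads of 50 nt cannot link an exon to the rest of its transcript, so the split is Salmon's estimate.

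Lactate dehydrogenase is a tetramer of A subunits (Ldha), which favour lactate formation from pyruvate, and B subunits (Ldhb), known from heart. Against MEF, Ldha was lower and Ldhb higher at day 9 and in ESC, whereas both were higher in ESC than at day 9. Ldha stood at 787 and 782 TPM in MEF, 151 and 152 at day 3, 185 and 182 at day 6, 172 and 174 at day 9 and 333 and 336 in ESC. All induced libraries were below MEF and ESC. Ldha fell by 2.4 ± 0.03 (SE, adjusted p = 1.4e-16) at day 3, stayed within 0.0 ± 0.03 (SE) between day 6 and day 9, and was -1.31 ± 0.03 (SE) for ESC with MEF, which became -0.97 without TMM. For ESC with day 9 it was 0.8 ± 0.03 (SE), under the minimum.

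Ldhb stood at 11.4 and 12.2 TPM in MEF, 22 and 20.8 at day 3, 24.2 and 23.2 at day 6, 24.6 and 25.9 at day 9 and 61.3 and 63.7 in ESC. MEF was lowest and ESC highest, with the induced stages between and close together. Its change at day 3, 0.77 ± 0.06 (SE), was under the minimum. It was higher by 1.2 ± 0.06 (SE, adjusted p = 6.1e-11) for day 9 with MEF, by 1.21 ± 0.05 (SE, adjusted p = 1.8e-11) for ESC with day 9, and by 2.41 ± 0.05 (SE, adjusted p = 1.7e-14) for ESC with MEF. The share of Ldhb in the summed TPM was 1.43 and 1.54 % in MEF against 12.7 and 12.1 at day 3, 11.6 and 11.3 at day 6, 12.5 and 13 at day 9 and 15.6 and 15.9 in ESC. MEF was therefore apart from every other stage in this ratio, while Ldha remained the larger part everywhere. By reads, the mean share of Ldhb was 1.09% in MEF and 12.7% in ESC.

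**Figure D2:**
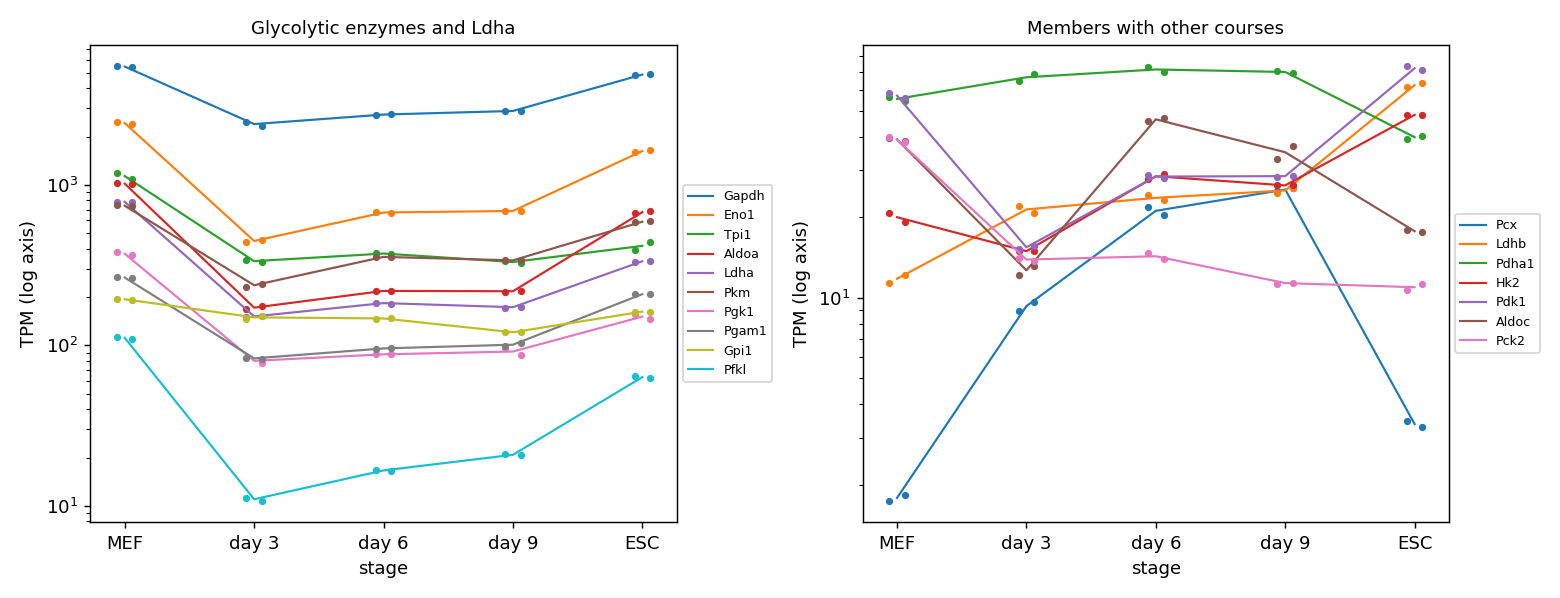
TPM on a log axis at the 5 stages, with points for single libraries and lines through the stage means. Left, 10 abundant or strongly changed glycolytic genes, which dip from MEF to day 3 (Gpi1 least) and are higher in ESC than at day 9; right, 7 members with other courses, of which Pcx peaks at day 9 with 25.1 and 25.8 TPM.

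The 3 genes of the pyruvate dehydrogenase complex were called in no comparison. By comparison and direction, 2.68% to 25.5% of all tested genes were called. Pdha1, the X-linked catalytic subunit, came nearest, with -0.98 ± 0.03 (SE) for ESC with day 9. Its TPM was 54.7 and 56.3 in MEF, 64.9 to 73.1 in the induced libraries, and 39.4 and 40.4 in ESC, with no overlap between those 3 sets. Pdhb, the other catalytic subunit, was at 22.2 to 27.2 TPM before ESC and at 42.2 and 43.1 in ESC. Its log2 change for ESC with MEF was 0.85 ± 0.05 (SE), and 1.18, a call, without TMM. A copy held 5.66% to 14.3% of the reads of Pdhb and that copy. Dlat, the acetyltransferase core, ranged from 20.2 to 25 TPM over the 10 libraries.

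Pyruvate dehydrogenase kinases switch the complex off by phosphorylation. Pdk1 stood at 58.5 and 55.7 TPM in MEF, 15.2 and 15.7 at day 3, 28.9 and 28 at day 6, 28.4 and 28.7 at day 9 and 73.4 and 71 in ESC. Day 3 was lowest, and all induced libraries lay below MEF and ESC. It fell by 2.06 ± 0.04 (SE, adjusted p = 8.1e-15) at day 3. For day 9 with MEF it was -1.06 ± 0.04 (SE), which fell under the minimum without TMM (-0.77). ESC with MEF gave -0.13 ± 0.04 (SE), although TPM was higher in ESC, and 4.1% to 10.5% of the TPM of Pdk1 lay on coding entries over 1000 nt.

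Pdk2, the widely expressed form, was at 6.52 and 5.36 TPM in MEF, 9.68 and 10.7 at day 3, 5.14 and 4.87 at day 6, 3.28 and 3.02 at day 9 and 5.73 and 4.83 in ESC. It was highest at day 3, where the log2 change from MEF, 0.71 ± 0.07 (SE), did not reach the minimum, and fell from day 3 to day 6 by 1.08 ± 0.08 (SE, adjusted p = 1.8e-08). Pdk3 was at 27.9 and 31.5 TPM in MEF, 17.7 and 24.9 at day 3, 15.8 and 17.1 at day 6, 16.3 and 15.9 at day 9 and 21.7 and 19.7 in ESC. It was called only for day 9 with MEF, at -1.06 ± 0.07 (SE, adjusted p = 1.9e-09), and became -0.77 without TMM.

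Pdk4, the form known to rise with fasting, was at 0.687 and 1.87 TPM in MEF, 0.619 and 0.605 at day 3, 0.308 and 0.427 at day 6, 0.268 and 0.416 at day 9 and 1.94 and 1.57 in ESC. It had 62 to 343 reads a library. ESC exceeded day 9 by 1.82 ± 0.18 (SE, adjusted p = 6.9e-07). Its change was -0.95 from day 3 to day 6 and -0.98 for day 9 with MEF. The first gained a call without day 3 replicate 2 (-1.08) or day 6 replicate 1 (-1.0), and the other without MEF replicate 1 (-1.06) or day 9 replicate 2 (-1.35).

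Pdk1 made up 62.5 and 59 % in MEF against 35.3 and 30.2 at day 3, 57.6 and 55.5 at day 6, 58.9 and 59.7 at day 9 and 71.5 and 73.1 in ESC. The share of Pdk2 was 22.4 and 20.5 % at day 3, 10.3 and 9.65 at day 6 and 6.81 and 6.28 at day 9, with 6.97 and 5.68 in MEF and 5.57 and 4.97 in ESC. Day 3 stood apart from the other stages in both shares, with less Pdk1 and more Pdk2. Pdk3 made up 29.8 and 33.4 % in MEF against 40.9 and 48.1 at day 3, 31.5 and 34 at day 6, 33.7 and 33.2 at day 9 and 21.1 and 20.3 in ESC. By reads, Pdk1 had a mean share of 36.7% at day 3 and 59.0% to 72.0% at the other stages.

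**Figure D3:**
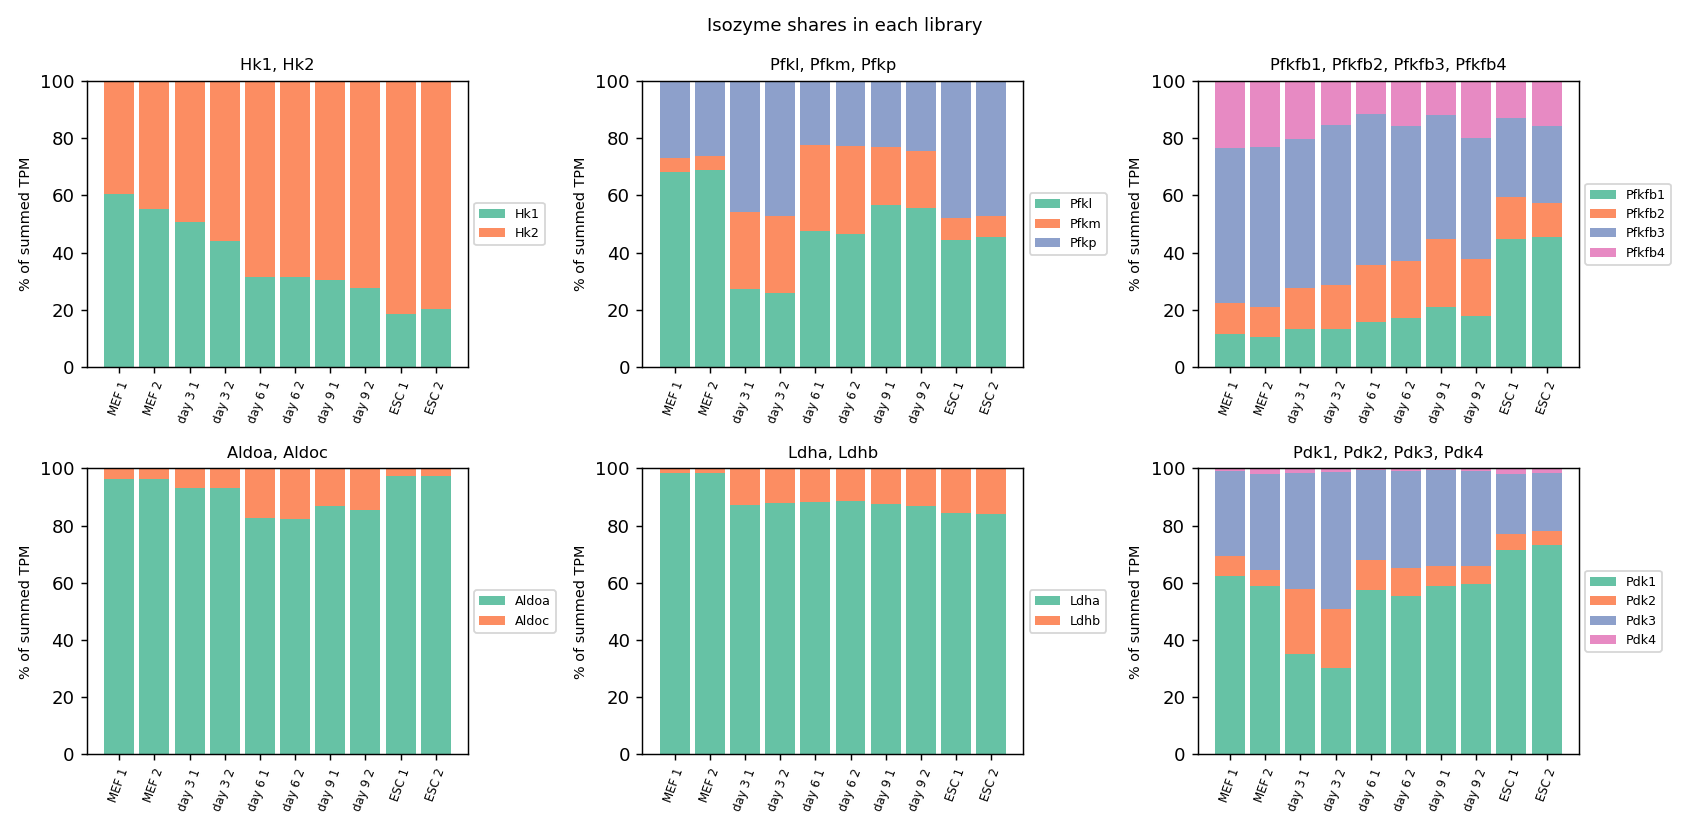
Share of each isozyme in the summed TPM of its group (stacked bars from 0% to 100%) in each of the 10 libraries, for hexokinases, phosphofructokinases, Pfkfb enzymes, aldolases, lactate dehydrogenases and pyruvate dehydrogenase kinases. Hk2 grows from 39.5% and 44.6% in MEF to 81.4% and 79.6% in ESC, and Aldoc is largest at day 6 with 17.4% and 17.8%.

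Pyruvate carboxylase, encoded by Pcx (chromosome 19, 4510472 to 4621752, plus strand), makes oxaloacetate from pyruvate in mitochondria and refills the citric acid cycle. It had the largest rise at day 3 and for day 9 with MEF among the 38 members with reads in every library. Pcx stood at 1.75 and 1.83 TPM in MEF, 8.97 and 9.67 at day 3, 21.9 and 20.4 at day 6, 25.1 and 25.8 at day 9 and 3.46 and 3.29 in ESC. The 6 induced libraries were all above MEF and ESC, and day 9 was highest. It rose by 2.35 ± 0.05 (SE, adjusted p = 5.3e-14) at day 3 and by 1.2 ± 0.04 (SE, adjusted p = 9.0e-12) from day 3 to day 6. The step to day 9 added 0.35 ± 0.04 (SE), under the minimum. For day 9 with MEF it reached 3.9 ± 0.05 (SE, adjusted p = 6.5e-17), and ESC with day 9 gave -3.06 ± 0.05 (SE, adjusted p = 7.1e-16). ESC with MEF gave 0.84 ± 0.06 (SE), and 1.18, a call, without TMM. All of its TPM lay on coding entries over 1000 nt, and it had 396 to 9119 reads a library.

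Pck2, the mitochondrial form of phosphoenolpyruvate carboxykinase, uses the oxaloacetate that Pcx makes. Its levels were 39.9 and 38.4 TPM in MEF, 14.1 and 13.7 at day 3, 14.7 and 14 at day 6, 11.3 and 11.4 at day 9 and 10.7 and 11.2 in ESC. MEF was above all other libraries. Pck2 fell by 1.52 ± 0.04 (SE, adjusted p = 3.6e-13) at day 3 and was -1.91 ± 0.04 (SE, adjusted p = 2.2e-14) for ESC with MEF.

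Fbp2, the muscle form of the gluconeogenic fructose bisphosphatase, was barely detected. It had 0 reads in both MEF libraries, 3 and 2 at day 3, 8 and 5 at day 6, 53 and 72 at day 9, and 59 and 46 in ESC. With 3 reads a library taken as the floor for MEF, its scaled CPM was at least 1.91-fold higher at day 6, 17.4-fold higher at day 9 and 14.7-fold higher in ESC. It rose from day 6 to day 9 by 3.16 ± 0.42 (SE, adjusted p = 5.4e-05). The call at day 3 (adjusted p = 0.022 by edgeR) rests on 5 reads and was lost without either MEF library, without day 3 replicate 1, and by DESeq2.

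The 4 pentose phosphate genes were called in no comparison, where 2.68% to 25.5% of all tested genes were called by direction. G6pdx, whose enzyme commits glucose 6-phosphate to the pathway, ranged from 14 TPM in ESC to 25 at day 3. Pgd, which makes the second NADPH, ranged from 34.3 TPM in ESC to 47 in MEF. Tkt and Taldo1 encode the transketolase and transaldolase of the non-oxidative branch, which links the pathway back to glycolysis. Tkt was at 96.8 to 121 TPM before ESC and at 163 and 169.9 in ESC. Taldo1 was at 34.3 to 57.4 TPM before ESC and at 100 in both ESC libraries, with 0.9 ± 0.05 (SE) for ESC with MEF on the log2 scale, and 1.24, a call, without TMM. The summed TPM of the 4 genes was 194 to 236 in the 8 other libraries and 311 and 321 in ESC.

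The glycerol phosphate shuttle carries cytoplasmic electrons into mitochondria, with Gpd1 on the cytoplasmic and Gpd2 on the mitochondrial side. Gpd1 was low, with 17 to 124 reads a library, and stood at 0.219 and 0.0879 TPM in MEF, 0.0896 and 0.135 at day 3, 0.564 and 0.511 at day 6, 1.01 and 0.629 at day 9 and 0.551 and 0.490 in ESC. Day 6 and day 9 were above MEF and day 3. It rose by 2.25 ± 0.29 (SE, adjusted p = 1.2e-05) from day 3 to day 6 and was 2.19 ± 0.29 (SE, adjusted p = 7.1e-06) for day 9 with MEF. The ESC calls were weak: ESC with day 9, -1.01 ± 0.25 (SE), was lost without day 9 replicate 1 (-0.96) or ESC replicate 2 (-0.88), and ESC with MEF, 1.18 ± 0.3 (SE), was lost without MEF replicate 2 (0.8).

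Gpd2 was at 16.1 and 13 TPM in MEF, 9.63 and 15.4 at day 3, 13.9 and 18.5 at day 6, 16.5 and 16.3 at day 9 and 29.9 and 16.1 in ESC, with wide spread between replicates. From 20% to 60.8% of that TPM lay on coding entries over 1000 nt, and the entry with the most was a noncoding one of 220 nt. On read counts Gpd2 was higher in ESC than in MEF by 1.27 ± 0.05 (SE, adjusted p = 3.1e-12), which was not called by limma on log2(TPM + 1), at 0.57.

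**Figure D4:**
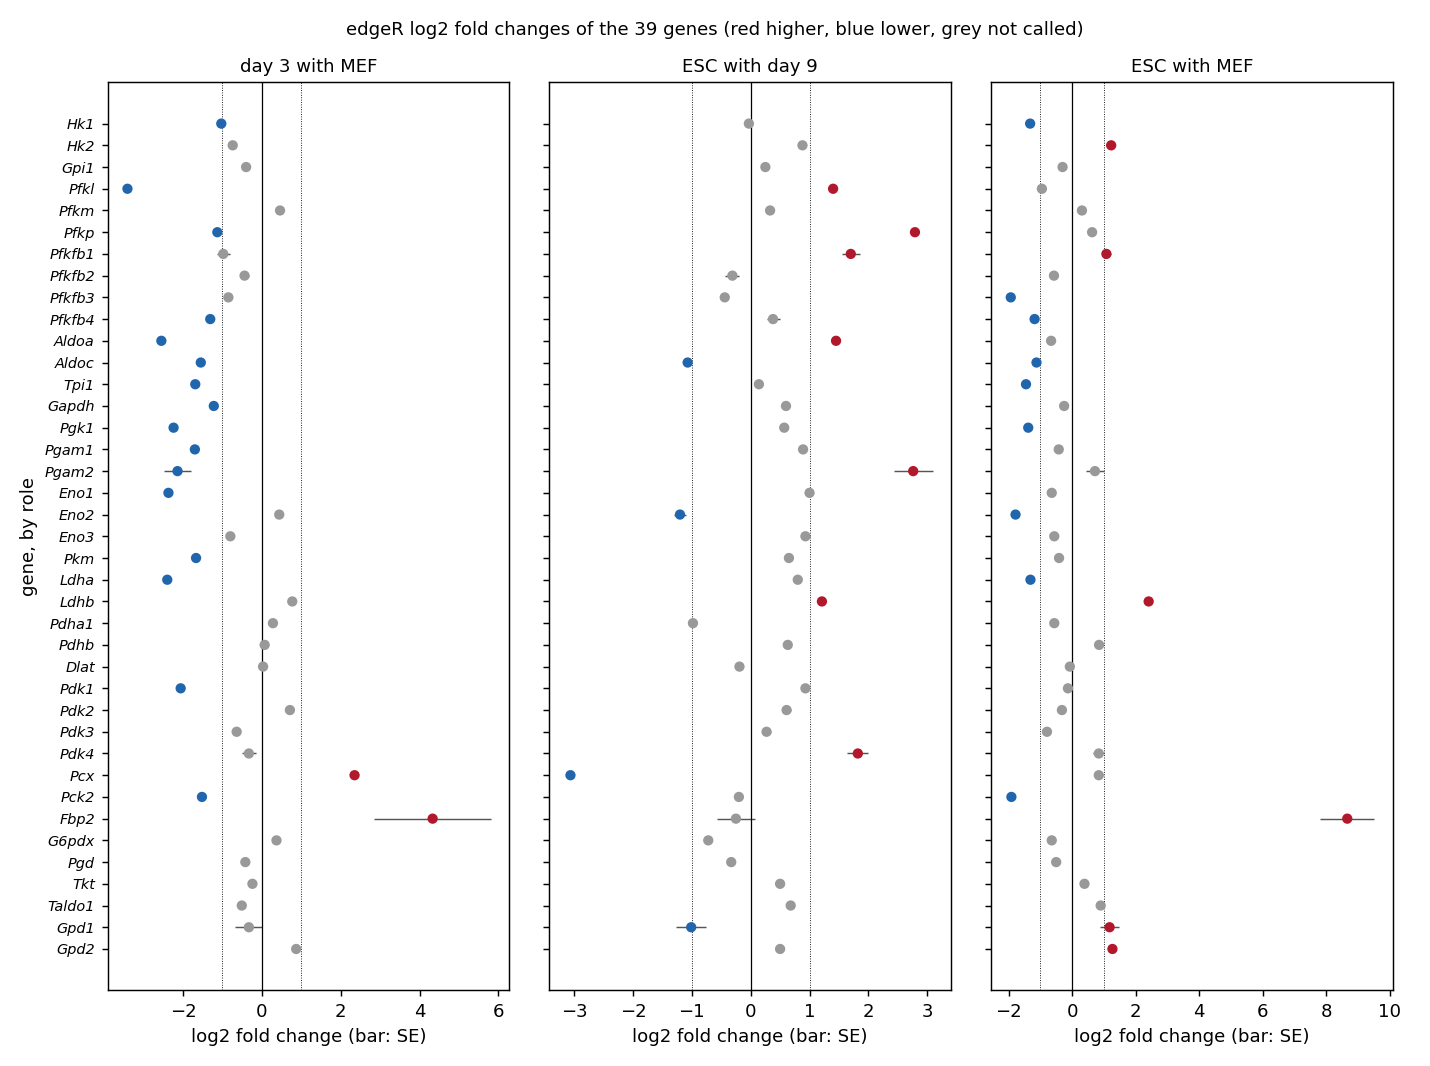
Log2 fold changes of the 39 genes (points) with standard errors (bars) by edgeR for day 3 with MEF, ESC with day 9, and ESC with MEF, red where called higher, blue where called lower and grey where not called, with dotted lines at -1 and 1. At day 3 the 16 blue points reach down to -3.41 for Pfkl; Fbp2 is drawn far right with a wide bar because MEF had 0 reads.

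Between ESC and MEF, the 6 members called higher were Hk2, Pfkfb1, Ldhb, Fbp2, Gpd1 and Gpd2, and the 9 called lower were Hk1, Pfkfb3, Pfkfb4, Aldoc, Tpi1, Pgk1, Eno2, Ldha and Pck2. Between ESC and day 9, the 7 higher were Pfkl, Pfkp, Pfkfb1, Aldoa, Pgam2, Ldhb and Pdk4, and the 4 lower were Aldoc, Eno2, Pcx and Gpd1. The 2 comparisons share the ESC libraries. Abundant enzymes such as Gapdh, Eno1, Pkm and Pgam1 were called in neither.

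The promoters of 4 members are shown for motifs that go with the pathway in textbooks, the core of the hypoxia response element (ACGTG or GCGTG, bound by HIF) and the E-box CACGTG (bound by Myc and related factors). Ldha, Pgk1 and Pfkl are shown as members that fell at day 3, and Pcx as one that rose. Each sequence is the 250 bases before a RefSeq start (GRCm38.p6), 5′ to 3′ on the strand of the gene, with ACGTG and GCGTG on either strand in capitals. An E-box always contains ACGTG on both strands.
Ldha, chr7:46845554-46845803, plus strand: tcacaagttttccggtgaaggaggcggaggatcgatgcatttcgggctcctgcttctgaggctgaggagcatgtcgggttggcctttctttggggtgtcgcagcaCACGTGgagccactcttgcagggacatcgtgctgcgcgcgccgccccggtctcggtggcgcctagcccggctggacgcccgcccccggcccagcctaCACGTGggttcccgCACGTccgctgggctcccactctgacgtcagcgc
Pgk1, chrX:106186850-106187099, plus strand: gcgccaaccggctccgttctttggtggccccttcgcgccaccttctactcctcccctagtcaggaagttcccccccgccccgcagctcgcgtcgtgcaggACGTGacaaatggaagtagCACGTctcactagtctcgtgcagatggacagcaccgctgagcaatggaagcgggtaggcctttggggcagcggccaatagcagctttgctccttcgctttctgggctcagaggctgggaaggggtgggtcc
Pfkl, chr10:78009808-78010057, minus strand: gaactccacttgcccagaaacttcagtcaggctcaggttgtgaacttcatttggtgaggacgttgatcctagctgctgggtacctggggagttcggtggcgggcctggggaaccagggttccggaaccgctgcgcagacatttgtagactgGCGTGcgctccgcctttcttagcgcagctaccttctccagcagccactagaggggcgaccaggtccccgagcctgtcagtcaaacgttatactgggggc
Pcx, chr19:4510222-4510471, plus strand: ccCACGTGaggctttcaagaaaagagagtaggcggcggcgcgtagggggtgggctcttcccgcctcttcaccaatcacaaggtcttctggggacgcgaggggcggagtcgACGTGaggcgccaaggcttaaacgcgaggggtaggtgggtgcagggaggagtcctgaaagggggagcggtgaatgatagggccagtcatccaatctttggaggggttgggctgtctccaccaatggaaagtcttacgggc

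The Ldha window held 2 E-boxes, with ACGTG from positions -145, -144, -48 and -47 counted from the start, and a further match at -34. Pgk1 had matches at -150 and -131 and no E-box. Pfkl had 1 GCGTG, at -99. Pcx, which went the other way, had an E-box at -248 and a further ACGTG at -140. In the windows shown, members that fell and the member that rose both held matches. Ldha had a further window, starting at chr7:46846832, with 1 GCGTG at -59 upstream and no E-box. The further window of Pcx, starting at chr19:4594069, held 0 matches. So did the window of Tpi1, a member that fell at day 3.

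In all, 38 of the 39 members were matched to 60 RefSeq windows of 300 bases, 250 before and 50 after a start. ACGTG on either strand was found in 38.3% of them and in 19.6% of all 32851 windows, GCGTG in 51.7% and 32.4%, and the E-box CACGTG in 11.7% and 7.15%. Either core was in 71.7% of member windows and 43.8% of all windows. The member windows were also richer in CG pairs, with a mean of 15.5 against 12.4, and both cores contain a CG pair. Windows of the same gene overlap in part, so they are not independent. A match is a stretch of letters and not a measured site.

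The other genes of the pathways, 36 from a list that holds the remaining isozymes, pentose phosphate enzymes and pyruvate carriers, were counted in the same way. Of the 32 tested, 3 were higher and 6 lower at day 3, where 14.6% and 14.5% of all genes were called, with a median log2 change of -0.24. Day 9 with MEF gave 7 higher and 6 lower (24.1% and 19.8% of all genes). For ESC with day 9 the counts were 10 and 0 (18.6% and 14.3%), and between ESC and MEF they were 12 and 5 (25.5% and 20.6%). Several of these are tissue-restricted isozymes at low levels, such as Ldhc and Pklr, both under 1 TPM in every group mean. The summed TPM of the list was 274.5 to 351 in all 10 libraries, against 4558 to 13340 for the 39 members.

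Genes known to respond to hypoxia were mostly lower in the induced cells than in MEF. Of 16 such genes outside the member list, 0 were higher and 13 lower at day 3, against 14.6% and 14.5% of all genes, with a median log2 change of -2.76. For ESC with day 9, 10 were higher and 0 lower, against 18.6% and 14.3%. From day 3 to day 6, 1 rose and 4 fell (9.26% and 10.2% of all genes), where 4 members rose and 2 fell. Between ESC and MEF, 0 were higher and 12 lower (25.5% and 20.6%), where 6 members were higher and 9 lower. Their summed TPM was 975 and 1037 in MEF, 114 to 122 in the 6 induced libraries, and 335 and 349 in ESC. Vegfa, the angiogenic factor, changed by -4.66 ± 0.04 (SE) at day 3, and the glucose transporter gene Slc2a1 by -1.82 ± 0.04 (SE). Kdm3a, Egln3 and Mxi1 were not called at day 3. The part of oxygen in the values of the members was not tested, and culture oxygen was not given in the labels.

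**Figure D5:**
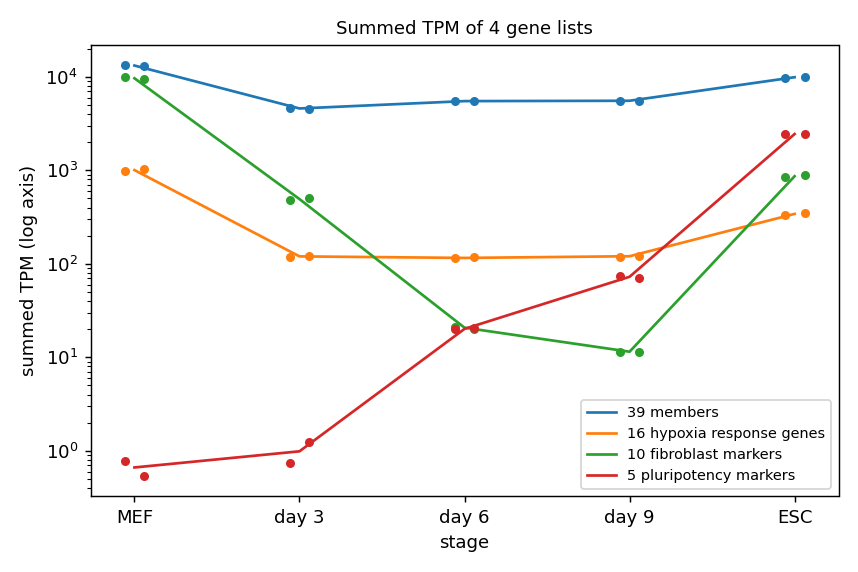
Summed TPM (log axis) of 4 gene lists at the 5 stages, with points for single libraries and lines through stage means. The 39 members and the 16 hypoxia response genes are both lowest in the induced libraries and in between in ESC; the 10 fibroblast markers drop to 11.5 TPM at day 9, and the 5 pluripotency markers rise to 2457 TPM in ESC.

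The fibroblast markers fell in step with induction and were partly present in ESC, as given above for the whole list. Their summed TPM was lower at day 9 than at day 3, whereas that of the 39 members was not. Single members differed from their sum, and Pfkp, Pdk2, Eno2, Eno3 and Pfkfb3, among others, had lower TPM at day 9 than at day 3. The part of the fibroblast markers in the levels of the members was not tested. Of the regulators, Hif1a, which encodes the oxygen-sensitive subunit of HIF, fell by 1.52 ± 0.04 (SE, adjusted p = 1.5e-13) at day 3 and Epas1, its paralog, rose by 2.15 ± 0.06 (SE, adjusted p = 1.8e-13). Myc rose by 1.23 ± 0.04 (SE, adjusted p = 6.3e-13) and was -3.94 ± 0.04 (SE, adjusted p = 3.9e-17) for ESC with day 9, but its reads include those of the cassette. Mycn, a Myc relative active in pluripotent cells, rose by 3.61 ± 0.08 (SE, adjusted p = 6.5e-14) from day 3 to day 6.

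Because Xist separated MEF and ESC from the induced cells, the X-linked members were set apart. They were Pgk1, Pfkfb1, Pdk3, Pdha1 and G6pdx, with a median log2 change of -0.64 at day 3, where Pgk1 alone was called. The 746 tested genes of chromosome X had a median of 0.03 and those of other chromosomes 0.08. Of these 746, 121 were called higher and 110 lower at day 3.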

How the data were processed

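Per the labels' protocols, total RNA was made into TruSeq stranded mRNA libraries and sequenced as single reads of 50 nt on a HiSeq4000, and all libraries carry 1 batch label. Per the submitters' processing notes, Salmon 0.8.2 and the build mm10 were used; the annotation release is not given in the sources used here. For each library the authors deposited estimated counts, not normalized, and TPM for each of 109617 transcripts; effective lengths, other deposited values, were identical in all 10 tables.

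Transcripts were summed by gene symbol and identifier, and the estimated counts were then rounded. Groups came from the sample titles. Genes were kept by filterByExpr (minimum count 10, total 15) and tested with the edgeR 4.0.16 quasi-likelihood test (R 4.3.3) on all 10 libraries with TMM and a mean per group. SE is the size of the log2 fold change divided by the root of the F statistic. A 95% interval for single shares is not given, because reads were assigned by a model. The common biological coefficient of variation was 3.75%.

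Every member was accounted for; TPM in each library was given for members called in a comparison and for their isozyme groups. The members and lists were chosen with earlier results of these data known. Alternatives were DESeq2 1.42.0, limma 3.58.1 on log2(TPM + 1) and log2(TPM + 0.1), other filters and scaling, only the groups compared, a replicate block, adding the reads of named copies, and leaving out each replicate. Adding the reads of 189 sequence-matched copies, and the grouping of induced against other libraries, were chosen after seeing the data. Coordinates are from GENCODE M21 (GRCm38). Python 3.11.15, numpy 2.4.6, pandas 2.3.3 and matplotlib 3.10.9 were used.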

Additional observations from a re-analysis of the deposited data

How the results depend on the processing

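None of the 72 called log2 values of members changed sign under any alternative, and of the 288 values with 1 library left out 8 lost their call, those of Hk1, Fbp2, Gpd1 and Pfkfb1 given above. Members higher at day 3 numbered 2, and 1 by DESeq2, the filter of 10 CPM, the fit to 2 groups alone and limma at either pseudocount, as Fbp2 was lost; without 1 library the range was 1 to 2. With log2(TPM + 1), day 6 with day 3 gave 2 higher and 1 lower, day 9 with day 6 gave 0 higher, ESC with day 9 gave 1 lower (2 with log2(TPM + 0.1)), day 9 with MEF gave 2 higher, and ESC with MEF gave 3 higher. The filter of 10 CPM, which left 34 members, gave 0 higher for day 9 with day 6 and 2 higher for day 9 with MEF. Library-size scaling gave 11 higher and 5 lower for ESC with MEF, where the main counts were 6 and 9. It moved the median of all genes from 0.08 to 0.285 at day 3, from 0.193 to 0.482 for day 9 with MEF and from 0.099 to 0.438 for ESC with MEF. Without a fold minimum the counts higher and lower were 9 and 26 at day 3, 21 and 9 for day 6 with day 3, 13 and 12 for day 9 with day 6, 26 and 11 for ESC with day 9, 10 higher for day 9 with MEF, and 14 and 24 for ESC with MEF. The cause was not tested for these changes beyond their construction.

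Replicate numbers are shared by the titles only: same-number correlations ran from -0.0205 to 0.0222. The replicate block changed none of the 12 counts, which stayed at 2 and 16 at day 3, 4 and 2, 1 and 0, 7 and 4, 4 and 17, and 6 and 9 in the other comparisons. Adding the reads of copies also changed none of these counts. Adding named copies did move shares of TPM. That of the members went from 1.33% and 1.31% to 1.41% and 1.39% in MEF, and from 0.982% and 1.0% to 1.03% and 1.05% in ESC. Measured against the SD between replicates, 23 stage means of isozyme shares moved and 97 did not. Leaving out a library leaves a group with 1, whose spread is then taken from the others. Depth limits Fbp2, Gpd1 and Pgam2. The short noncoding entries limit the TPM of Eno1, Eno3, Tpi1, Pdk1, Pdk2, Pdk3, Aldoc, Dlat, Hk2 and Gpd2, among others. Coding entries over 1000 nt held 22.5% to 31.8% of the TPM of Eno3 and 24.2% to 30.5% of that of Dlat. For Pdk2 they held 32.3% to 46.5%, and for Pdk3 37.9% to 50.8%. Most reads of Eno2 lay outside its coding entries over 1000 nt, which limits its read counts too.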
